A study of Mus musculus with 8 samples.

Results

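Trp73 and Trp63 encode p73 and p63, the relatives of the tumour suppressor p53. They were read in mouse embryonic stem (ES) cells on 8 microarrays, 4 from cells given 2.5 µM cisplatin and 4 from cells given the solvent DMSO, sampled at 8 h. Both groups consisted of ES cells of strain C57BL/6 lacking HPRT, at passages 19 to 22, moved from feeder-coated to gelatin-coated plates before the experiment. Cisplatin crosslinks DNA. Replicates are numbered 3 to 6 in each group. Nothing states that they came from separate cultures, so p-values measure the spread between these arrays only, which may be technical. The genes were picked by symbol, as every probe set (a group of probes summarised to 1 value) whose only listed gene is Trp73 or Trp63. That gave 2 probe sets for Trp73 and 4 for Trp63, so 2 of 17098 genes and 6 of 28898 probe sets that name 1 gene. The pair was selected on results of this same comparison, in which Trp73 was already known to be among the largest increases, so its values are given below as a description with no test.

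The p53 family shares a conserved DNA-binding domain, and its members can bind the same response elements. Each of Trp73 and Trp63 has an upstream promoter, giving TA forms with a transactivation domain, and an internal promoter giving ΔN forms that lack it and can oppose the TA forms and p53. p63 maintains stratified epithelia and triggers the death of oocytes with damaged DNA, and p73 is needed for multiciliated cells and the nervous system. In several cell types p73 accumulates after cisplatin and can activate pro-apoptotic p53 targets. E2F1 activates the upstream promoter of the p73 gene, and p53 can activate its internal one.

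Both promoters of Trp73 are shown because the probe sets of this gene give 1 level without saying which promoter the transcripts came from. The windows run from 250 bases before to 50 bases after each start site on the minus strand and come from RefSeq annotation of GRCm38.p6. The upstream start lies at chr4:154139826-154140125 and the internal one at chr4:154097124-154097423, within the annotated gene and 42702 bases further along. Capitals mark motif matches, which are a description of letters and not evidence of binding.
Trp73, upstream promoter: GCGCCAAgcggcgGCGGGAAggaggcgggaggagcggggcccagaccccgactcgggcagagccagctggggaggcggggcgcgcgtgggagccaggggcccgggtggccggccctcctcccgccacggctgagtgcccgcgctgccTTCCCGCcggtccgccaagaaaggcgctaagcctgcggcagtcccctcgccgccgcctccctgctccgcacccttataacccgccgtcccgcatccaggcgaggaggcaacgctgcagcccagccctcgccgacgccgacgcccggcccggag
Trp73, internal promoter: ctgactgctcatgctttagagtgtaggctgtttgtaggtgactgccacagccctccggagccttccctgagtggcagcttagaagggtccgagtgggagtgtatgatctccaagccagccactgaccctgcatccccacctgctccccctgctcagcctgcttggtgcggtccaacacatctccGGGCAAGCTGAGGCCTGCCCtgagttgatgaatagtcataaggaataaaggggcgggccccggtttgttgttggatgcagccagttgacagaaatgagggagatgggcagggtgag
The capitals in the upstream window are E2F words, on either strand. The words searched were TTCCCGC and its variant TTCGCGC, along with TTGCCGC and its variant TTGGCGC. There were 3 matches, at window bases 1 to 7, 14 to 20 and 148 to 154 from the 5′ end. They did not overlap, and 9.57% of 32851 RefSeq promoter windows of the same 300 bases hold at least 1. The capitals in the internal window are a p53 response element with 2 mismatches, at bases 185 to 204. The search took the 20-base consensus of abutting half-sites, which reads alike on both strands, with up to 2 mismatches. Of all windows 0.798% hold such a match. No p53 element of this kind was found in the upstream window and no E2F word in the internal one. The upstream window is 77.7% G or C and the internal one 57.7%, against a median of 52.7% over all windows. Less G or C than in the upstream one was found in 97.9% of all windows, and less than in the internal one in 64.5%. The E2F words are mostly G or C, and their share among windows of like composition was not counted.

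The brighter Trp73 probe set, 1452325_PM_at, had log2 expression values of 5.19, 5.71, 5.81 and 5.24 on cisplatin arrays 3 to 6. On control arrays 3 to 6 it stood at 3.23, 3.33, 3.40 and 3.59. All cisplatin arrays thus lay above all control arrays, with a gap of 1.61 between the lowest treated and the highest control value. The group means were 5.49 ± 0.32 (SD, n = 4) and 3.39 ± 0.15, a log2 difference of 2.10 ± 0.18 (SE), or 4.29-fold on these values. On these values, which take no account of background, Trp73 ranked 6 among the 17098 genes ordered from the largest increase. The rank is not fixed, because the control level lies below the highest background, as described next.

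The dimmer Trp73 probe set, 1427697_PM_a_at, differed in the same direction by less. Its values were 3.52, 3.65, 3.68 and 3.65 on the cisplatin arrays and 3.15, 3.05, 2.92 and 2.77 on the control arrays. The groups again did not overlap, with means of 3.62 ± 0.07 (SD, n = 4) and 2.97 ± 0.17 and a log2 difference of 0.65 ± 0.09 (SE). The positions of the probes along the transcript were not used here, so neither value can be assigned to a TA or ΔN form. Averaging both probe sets gave a log2 difference of 1.38 for Trp73. Groups that do not overlap were seen for 2 of the 6 probe sets of the pair, and for 21.6% of all probe sets that name 1 gene. The members were chosen with this comparison known, so nothing is read from that count.

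The size of the Trp73 difference depends on where background lies. The array carries 23 background probe sets of 25-base probes, sorted by their number of G or C bases, that should match no transcript. Their log2 levels had a median of 2.31, and reached 3.10 with 24 G or C and 4.89 with 25. The mean over all of them was 2.51 ± 0.03 (SD, n = 4) in both groups, with a log2 difference of -0.00037 (two-sided exact permutation test over the 70 assignments of the arrays, p = 1). On every cisplatin array 1452325_PM_at lay above the highest background probe set of that array. On all 4 control arrays it lay below this level and above the one with 24 G or C.
Taken against the highest background, the group means put Trp73 at least 1.49-fold higher with cisplatin (0.57 on the log2 scale). This bound and those given below compare group means and carry no error. The highest background probe set itself had an SD of 0.20 over the control arrays. The dimmer probe set was above the 24 G or C level on all 4 cisplatin arrays and on 1 of 4 control arrays. By group means it was at least 1.43-fold higher against that level. It never reached the level with 25 G or C.

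**Figure D1:**
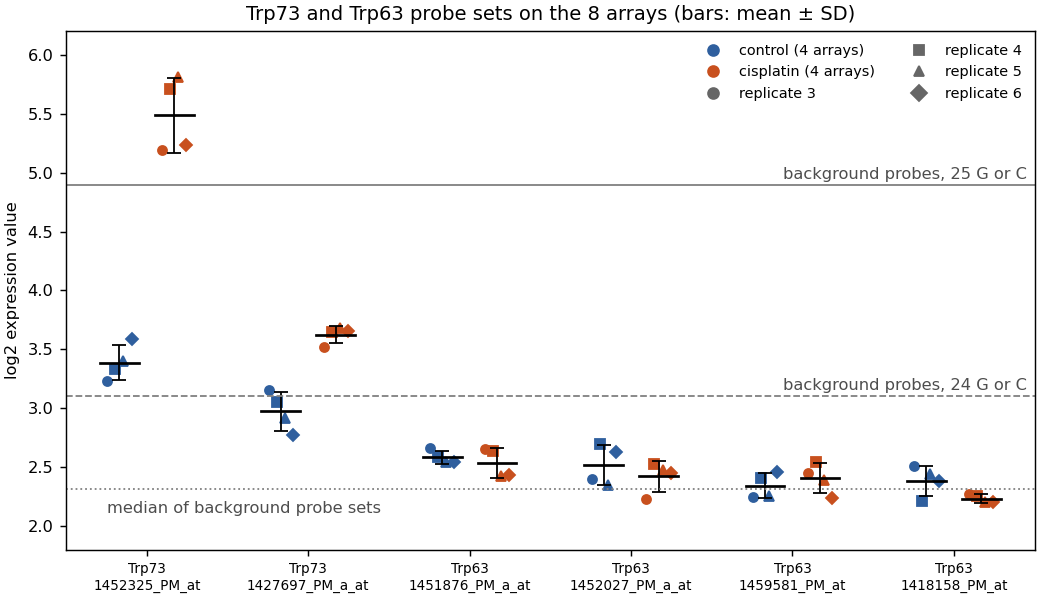
Log2 expression value (vertical axis) of the 2 Trp73 and 4 Trp63 probe sets on each array, with control arrays in blue, cisplatin arrays in orange, a marker shape per replicate number, and bars for mean ± SD of 4 arrays. Grey lines mark background probe sets at 4.89, 3.10 and 2.31 on the log2 scale; only 1452325_PM_at rises above the upper line, and the 4 Trp63 probe sets lie below the middle line on all arrays.

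Trp63 stayed at background. None of its 4 probe sets rose above the background level with 24 G or C on any of the 8 arrays. The brightest, 1451876_PM_a_at, stood at 2.66, 2.63, 2.42 and 2.43 on cisplatin arrays 3 to 6 and at 2.67, 2.58, 2.54 and 2.55 on control arrays 3 to 6. The groups overlapped, with means of 2.54 ± 0.13 (SD, n = 4) and 2.58 ± 0.06 and a log2 difference of -0.05 ± 0.07 (SE).
The probe set 1452027_PM_a_at ranged from 2.23 to 2.53 with cisplatin and from 2.35 to 2.69 in the controls, a difference of -0.10 ± 0.11. The third, 1459581_PM_at, ranged from 2.24 to 2.54 and from 2.25 to 2.46, a difference of 0.06 ± 0.08. The dimmest, 1418158_PM_at, ranged from 2.20 to 2.27 and from 2.21 to 2.51, a difference of -0.15 ± 0.07. The 4 probe sets overlap between the groups and differ in sign among themselves. At these levels a transcript present in few copies would not be detectable, and a fall could not be seen.

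The cells carried the markers of their label in both groups, at a slightly lower level with cisplatin. The mean log2 level of 9 ES cell markers was 11.01 ± 0.03 (SD, n = 4) on the cisplatin arrays and 11.23 ± 0.01 on the control arrays, and the groups did not overlap. By the fit over all genes described below, 5 of the 9 were called lower and none higher, against 7.69% and 11.6% of all genes. The 5 called lower were the pluripotency genes Esrrb, Klf4, Zfp42, Nanog and Utf1, with log2 differences from -0.55 to -0.22. Pou5f1, which encodes Oct4, stood at 12.19 ± 0.06 and 12.23 ± 0.06 and was not called. What part this shift had in other values was not tested. The basal keratin gene Krt14, a p63 target, was at 2.70 ± 0.13 with cisplatin and 2.64 ± 0.05 in the controls, and its partner Krt5 at 3.42 ± 0.25 and 3.34 ± 0.08, neither of them called. Krt15, another basal keratin gene, rose at a similarly low level, from 3.01 ± 0.19 to 3.39 ± 0.16 (adjusted p = 0.0333). Of 16 markers of fibroblasts, the feeder cells, 9 lay below the 24 G or C background in both groups, Dcn, Lum and Col1a2 among them. Others lay higher, with Acta2 at 8.58 ± 0.35 with cisplatin and 8.43 ± 0.26 in the controls, not called. The mean log2 level of the 16 markers ranged from 3.46 to 3.79 over the cisplatin arrays and from 3.47 to 3.63 over the control arrays. Of the 16 markers 3 were called higher, against 11.6% of all genes. Mmp2 was at 5.93 ± 0.09 with cisplatin and 5.32 ± 0.14 in the controls, and Thy1 at 5.23 ± 0.23 and 4.62 ± 0.28. The other, Fbln2, was at background level in both groups. What part these cells had in any value was not tested, and in bulk samples fewer cells of a type and less RNA per cell cannot be told apart.

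The genes that act on p73 and p63, or that these proteins act on, were read in a fit over all genes. At an adjusted p under 0.05 (limma), 19.3% of the 17098 genes were called, 11.6% higher and 7.69% lower with cisplatin. The median log2 difference of all genes was 0.01, and the median SE 0.08. Subtracting from every array the median of its genes lowers every log2 difference by 0.13 (called centring below) and turns the 1989 higher and 1314 lower calls into 1087 and 3925. The 5 gene lists used below were compiled with earlier results of these data known, so their counts are set beside these shares without a test of the list.

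Among 27 measured regulators of p63 and p73, 8 were higher, 7 lower and 12 not called, with a median log2 difference of -0.04. After centring 8 were higher and 11 lower, with a median of -0.17 against -0.12 for all genes. With averaged probe sets the median was 0.02 against 0.01 for all genes, so the list median has no settled sign. Plk1, a mitotic kinase that can inhibit p73, fell by 0.77 ± 0.05 (log2 ± SE, 4 arrays against 4; adjusted p = 2.58e-05). Mdm2, whose product binds p53 and p73, rose by 1.48 ± 0.12 (adjusted p = 4.79e-05). Fbxw7, the substrate receptor of a ubiquitin ligase, rose by 0.75 ± 0.07 (adjusted p = 9.82e-05), and its other probe set differed by 0.67. Zeb1, a repressor that can silence p73 transcription, fell by 0.68 ± 0.06 (adjusted p = 0.000103), while its other probe sets, at or below 3.21 on the log2 scale, differed by -0.02 and -0.06.

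Other regulators are singled out here after their values were seen. Ppp1r13b and Ppp1r13l, which encode the p53-family cofactors ASPP1 and iASPP, rose by 0.62 ± 0.06 and 0.75 ± 0.10 (adjusted p = 0.000156 and 0.000517). Of these cofactors ASPP1 enhances and iASPP restrains the induction of cell death genes by the family. E2f1 stood at 0.09 ± 0.08 (adjusted p = 0.489), with 6.94 ± 0.07 (SD, n = 4) on the cisplatin arrays and 6.85 ± 0.14 on the control arrays. Itch, the ubiquitin ligase best known for degrading p73, was at -0.21 ± 0.06 by its brightest probe set (adjusted p = 0.0393). Its most variable probe set gave 0.37 (adjusted p = 0.0755) and the mean of its probe sets 0.06, so its direction is not settled.

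Of 19 measured p53-family target genes, 16 were higher, none lower and 3 not called, and the median log2 difference was 0.80. Such genes can respond to p53, p63 or p73, and these arrays do not separate the factors. Btg2, an antiproliferative gene, rose by 2.22 ± 0.12 (adjusted p = 7.65e-06). Trp53inp1, which encodes a stress-induced cofactor of p53 and p73, rose by 1.26 ± 0.11 (adjusted p = 8.3e-05), and the cyclin G1 gene Ccng1 by 1.12 ± 0.10 (adjusted p = 9.82e-05). The list shares Mdm2 with the regulators, and Perp and Sfn with the epithelial list that follows. The cyclin kinase inhibitor gene Cdkn1c, reported as a p73 target, was at 0.26 ± 0.09 (adjusted p = 0.0625).

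The epithelial genes linked to p63 split. Of 29 measured, 7 were higher, 5 lower and 17 not called, with a median log2 difference of 0.08 against 0.01 for all genes. After centring, which lowers all genes alike, these medians were -0.05 and -0.12. Of the epithelial genes 9 lay below the 24 G or C background in both groups. Zfp750, a p63 target and regulator of epidermal differentiation, rose by 2.01 ± 0.14 (adjusted p = 2.39e-05). Its control mean of 3.88 lay below the highest background, so by group means it was at least 1.97-fold higher. The desmosomal p53-family target Perp rose by 1.85 ± 0.19 (adjusted p = 0.00014). Grhl3, a transcription factor of the epidermal barrier, rose by 0.60 ± 0.06 (adjusted p = 0.000178).
The chromatin organiser gene Satb1 fell by 0.92 ± 0.11 (adjusted p = 0.000284), and its other probe sets differed by -0.80 and, for the dimmest, -0.08. The receptor gene Fgfr2 fell by 0.53 ± 0.12, the plakin gene Dst by 0.47 ± 0.08 and the integrin gene Itga6 by 0.25 ± 0.06 (adjusted p = 0.0111, 0.00201 and 0.014). Fgfr2 lay below the highest background in both groups, at 4.17 with cisplatin and 4.70 in the controls. The 2 other probe sets of Fgfr2 differed by -0.18 and -0.07, and those of Dst by -0.50, -0.03 and -0.02. Averaging the probe sets brought both genes to -0.26 (adjusted p = 0.0282 and 0.0168). Grhl2, an epithelial transcription factor related to Grhl3, was at -0.37 ± 0.11 (adjusted p = 0.045), but was no longer called when any of cisplatin arrays 4 to 6 or control arrays 3 to 5 was left out (highest adjusted p = 0.114) or when its probe sets were averaged (-0.20, adjusted p = 0.127).

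The multiciliated cell genes that act with or under p73 also went both ways. Of 8 measured, 2 were higher, 3 lower and 3 not called, with a median log2 difference of -0.14. Foxj1, the master regulator of motile cilia and a direct p73 target, rose by 0.44 ± 0.08 (adjusted p = 0.0034), from 3.15 ± 0.10 (SD, n = 4) to 3.59 ± 0.13, low levels close to the 24 G or C background. Foxn4, a transcription factor of multiciliated cells, rose by 0.47 ± 0.07 (adjusted p = 0.000794). Rfx3, a transcription factor of cilium genes, fell by 0.75 ± 0.08 (adjusted p = 0.000168), from 4.26 to 3.50, while its other probe set differed by -0.05 and the mean of both by -0.40. Foxj1, Foxn4 and Rfx3 lay below the highest background in both groups.
Rfx2, a relative of Rfx3, was at -0.39 ± 0.10 (adjusted p = 0.0228) and the centriole kinase gene Plk4 at -0.16 ± 0.05 (adjusted p = 0.0488). The call of Plk4 was lost without any 1 of the 8 arrays (highest adjusted p = 0.118), and that of Rfx2 on leaving out array 5 or 6 of the cisplatin group or array 3 or 6 of the control group (highest 0.0651). Without any 1 of those 4 arrays, 1 gene of the list was lower. Averaging its probe sets gave -0.10 for Rfx2 (adjusted p = 0.296).

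Among 8 other reported targets of p63 or p73, 2 were higher and none lower at an adjusted p under 0.05 by limma, with a median log2 difference of 0.28. The Notch ligand gene Jag1 rose by 0.39 ± 0.07 (adjusted p = 0.00252). Hey2, a Notch effector gene, was at 0.40 ± 0.11 (adjusted p = 0.0261), below the 24 G or C background in both groups, and was not called after centring (0.27, adjusted p = 0.082). Leaving out array 5 or 6 of the cisplatin group or array 3 of the control group also ended its call (highest adjusted p = 0.0698), leaving 1 gene of the list higher. The water channel gene Aqp3 was at 0.51 ± 0.16 (adjusted p = 0.0532). It was called with an intensity trend in the fit (adjusted p = 0.0162), among genes above the highest background (0.0326) and without control array 6 (0.0184), but its probe sets averaged gave 0.36 (0.159). Not called either was Serpinf1, which encodes an inhibitor of vessel growth and was at 0.51 ± 0.22 (adjusted p = 0.151). Cox4i1, a subunit gene of cytochrome c oxidase, was at 0.11 ± 0.05 (adjusted p = 0.17).

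**Figure D2:**
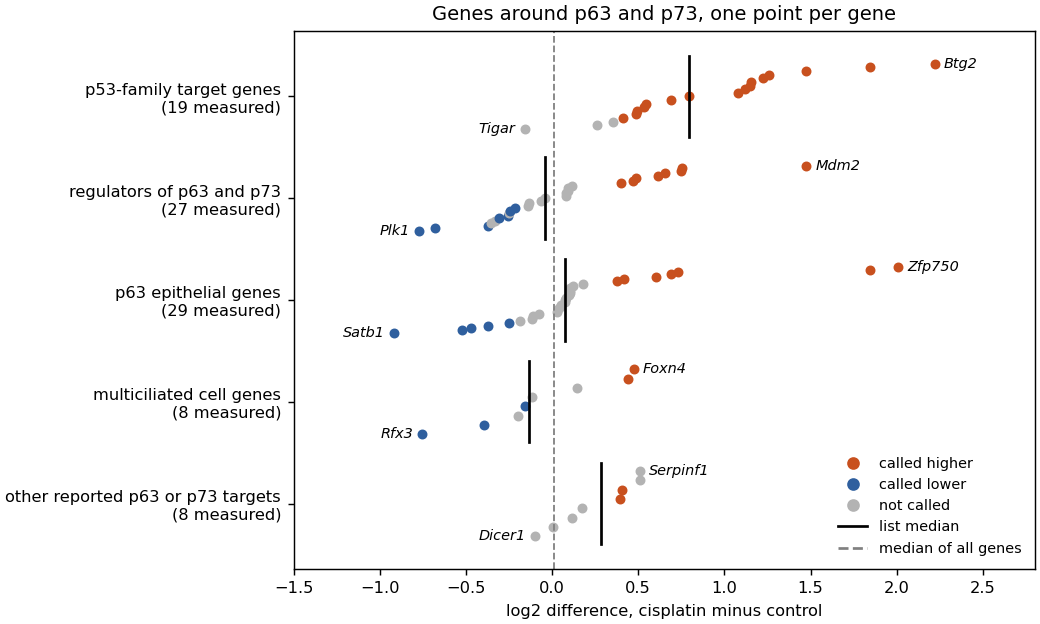
Log2 difference, cisplatin minus control (horizontal axis), for each measured gene of the 5 lists, 1 point per gene, coloured by whether limma called it higher, lower or neither. Black bars mark list medians and the dashed line the median of all genes; 16 of 19 p53-family targets were called higher, while regulators and epithelial genes spread to both sides.

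The chromosomal neighbours were read as well, taking the 3 nearest measured genes on each side in RefSeq order. Around Trp73 on chromosome 4, 2 of 6 neighbours were higher and none lower, against 11.6% and 7.69% of all genes. Wrap73, the nearest measured gene on the side of the upstream start, with 1 other annotated gene between, encodes a WD-repeat protein of the spindle and centrioles. Its log2 values were 6.55, 6.92, 6.94 and 6.66 on cisplatin arrays 3 to 6 and 6.06, 6.13, 6.14 and 5.96 on control arrays 3 to 6. The groups did not overlap, and Wrap73 rose by 0.69 ± 0.09 (adjusted p = 0.000637).
Dffb, which encodes the DNase that cuts DNA in apoptotic cells, was the third measured gene on the far side, 6 annotated genes away. It rose by 1.25 ± 0.14 (adjusted p = 0.000212), or by group means at least 1.39-fold against the highest background, which its controls did not reach. Its values were 5.07, 5.57, 5.57 and 5.34 with cisplatin and 4.24, 4.11, 4.37 and 3.83 in the controls. The genes between, Lrrc47 and Smim1, were at -0.06 ± 0.06 and -0.01 ± 0.09, and beyond Wrap73 stood Tprgl at 0.01 ± 0.05 and Megf6 at 0.24 ± 0.11 (adjusted p from 0.192 to 0.935). Lrrc47 and Smim1, which were not called, thus lie between Trp73 and Dffb, whereas no measured gene lies between Trp73 and Wrap73. Smim1, at 3.78 with cisplatin and 3.80 in the controls, lay below the highest background in both groups, as did Megf6. A change there may be understated.

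Around Trp63 on chromosome 16, 1 of 6 neighbours was lower and none higher. Lpp, 13 annotated genes away, encodes a LIM-domain protein of focal adhesions. It fell by 1.03 ± 0.13 (adjusted p = 0.000572), and its 6 other probe sets differed by -0.25 to -1.13. The nearest measured genes, Tprg and P3h2, were at -0.12 ± 0.07 and 0.12 ± 0.06, and the claudin genes Cldn1 and Cldn16 at 0.03 ± 0.09 and -0.02 ± 0.08. Bcl6, a transcriptional repressor gene 23 annotated genes away, stood at -0.20 ± 0.09 (adjusted p = 0.157), below the highest background in both groups. Centring brought Tprg to -0.25 (adjusted p = 0.0348) and Bcl6 to -0.34 (adjusted p = 0.0136), past the threshold. It lowered the differences of the background probe sets by the same 0.13, so no fall is read from either gene.

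**Figure D3:**
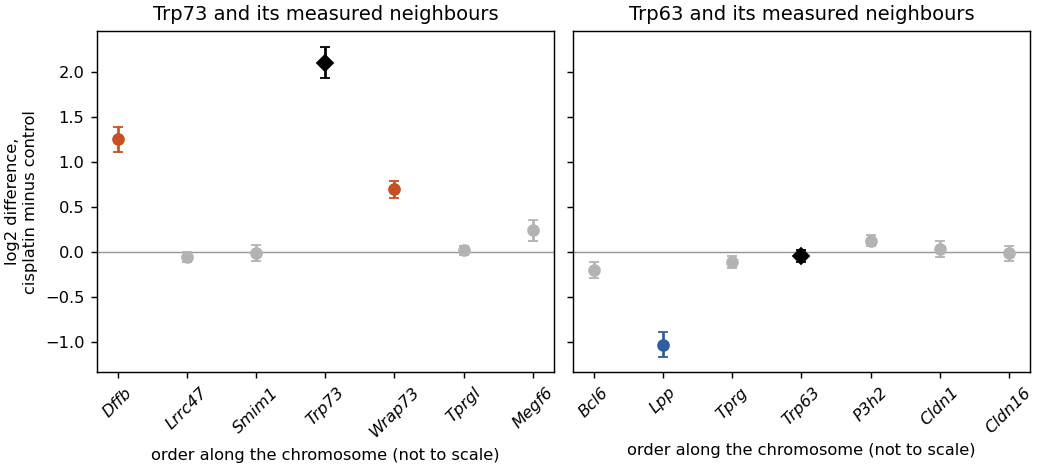
Log2 difference, cisplatin minus control, ± SE (vertical axis) for Trp73 and Trp63 (black, brightest probe set, no test) and the 3 nearest measured genes on each side, in chromosomal order and not to scale. Orange marks genes called higher, blue lower and grey not called. Dffb and Wrap73 rose among the measured neighbours of Trp73, and Lpp, 13 annotated genes away, fell among those of Trp63.

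On the cisplatin arrays 1452325_PM_at was highest on array 5, then 4, 6 and 3. The mean over the 19 p53-family target genes had the same order, at 8.29, 8.23, 8.15 and 8.08 on arrays 5, 4, 6 and 3, and so did Wrap73 and Dffb. On the control arrays the orders differed, since Trp73 was highest on array 6, where the target mean was lowest at 7.15. With 4 arrays this order is a description, noticed after the values were seen. It was not tested, and the share of all genes with the same order was not counted.

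**Figure D4:**
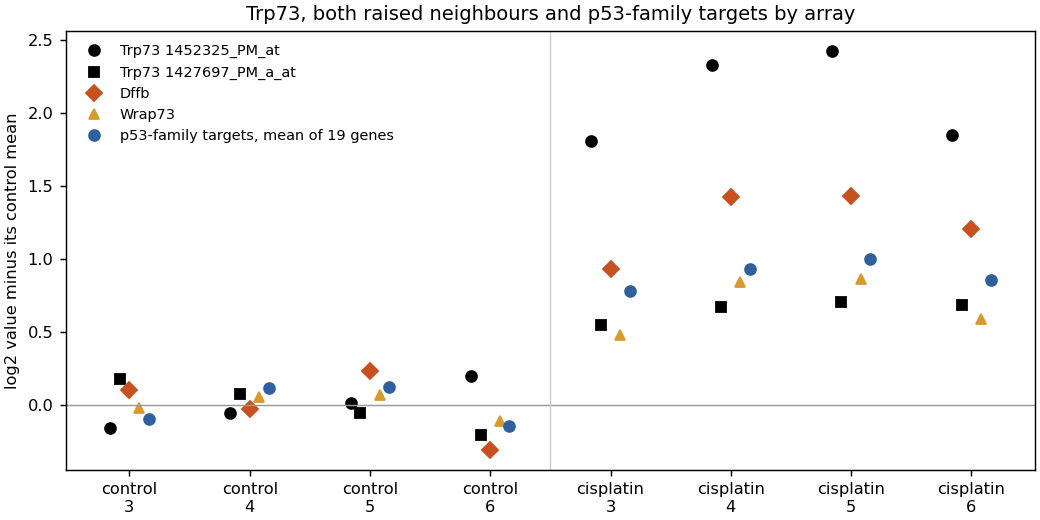
Log2 value minus its control mean (vertical axis) on each of the 8 arrays for both Trp73 probe sets, the neighbours Dffb and Wrap73, and the mean of 19 p53-family target genes. All 5 lie higher on every cisplatin array than on any control array, and array 3 is the lowest of the cisplatin arrays for each.

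The genes most like Trp73 over the 8 arrays, by Pearson's r with 1452325_PM_at, were Cby1 (0.997), Coa5, Cgref1, Zfyve21 and Dcaf7 (0.995). Cby1 encodes Chibby, which binds beta-catenin and acts at the base of cilia, and Coa5 an assembly factor of cytochrome c oxidase. Cgref1, a growth regulator with an EF-hand domain, differed most of these 5, by 1.55 ± 0.10 on the log2 scale, and Dcaf7 least, by 0.31 ± 0.05. Over all 8 arrays r mainly reads the difference between the groups, and 1060 other genes, or 6.2%, had an r of at least 0.9. The second Trp73 probe set reached 0.918.
After the group means were subtracted, the highest r was that of Scarb1, a lipoprotein receptor gene, at 0.968, followed by Lmo1, Gtf3c1, Pxmp4 and 4930426D05Rik at 0.967, 0.966, 0.961 and 0.96. Scarb1 itself differed by 0.02 ± 0.08 between the groups. Lmo1 and 4930426D05Rik lay below the highest background in both groups. The genes named by this r were picked as the highest among all genes. What r such a pick reaches by chance was not tested, so no link to Trp73 is read from them. The second Trp73 probe set gave -0.148 by this measure, a value that joins unlike groups. On the cisplatin arrays both were lowest on array 3 and highest on array 5, whereas on the control arrays, where both lay below the highest background, their orders ran opposite. Trp63 was left out of this comparison because none of its probe sets lay above background.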

How the data were processed

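The values are log2 expression as the authors deposited it, attributed to RMA in the submitters' processing notes. Those notes also name limma, without versions. RMA models background, quantile-normalizes and combines probes, so values near background understate a change and a shift of total RNA is not seen. Per the labels' protocols, amplification primed at the 3′ end. The array number limits precision.

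Of 45141 probe sets, 28898 name 1 gene in the platform annotation, 551 several and 104 are controls. Symbols follow the RefSeq table of GRCm38.p6, which held 16937 of 17098 genes. Each gene was read by its probe set with the highest mean. Groups follow the title labels. Cisplatin was compared with control across all genes by limma 3.58.1 in R 4.3.3, with Benjamini-Hochberg adjustment, which was tested on simulated data. Members, lists and alternatives were chosen with earlier results of these data known. Named are, per list, the 4 genes with the smallest p and all calls of a direction with 5 or fewer, 3 neighbours per side, and the 5 genes most like Trp73. Ppp1r13b, Ppp1r13l, E2f1, Itch, Cdkn1c, Cox4i1, Krt5, Krt14, Krt15, Pou5f1, Nanog, Zfp42, Esrrb, Klf4, Utf1, Mmp2, Thy1, Fbln2, Acta2, Dcn, Lum and Col1a2 were added after their values were seen. Above background means a group mean over the highest background probe set; the level with 24 G or C was added after seeing the data. List genes without a probe set of their own were not analysed here. Alternatives covered probe set, normalization, dim values, the test, a block for replicate number, and leaving out single arrays. Figures used matplotlib 3.10.9.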

Additional observations from a re-analysis of the deposited data

Results flagged for a closer look

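Of 96 groups of 4 arrays examined for the members and named genes, 1 held an array far from the others, where about 1 in 20 would by chance. Krt5 stood at 3.04 on cisplatin array 6 against 3.51 to 3.58 on the other cisplatin arrays.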

How the results depend on the processing

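The log2 difference of Trp73 moved from 2.10 to 0.57 with values floored at the highest background probe set and to 1.38 with its probe sets averaged, and ranged from 1.99 to 2.20 with 1 array left out. That of Trp63 moved from -0.05 to -0.18 after centring, and ranged from -0.09 to -0.0099 with 1 array left out. Of the 6 probe sets, 1 lay above background on the cisplatin mean and 0 on the control mean. With the median of the background probe sets these counts were 5 and 6, and with the 24 G or C level, added after seeing the data, 2 and 1.

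After centring, 1087 genes were higher and 3925 lower, 1 p53-family target and 11 regulators were lower, and of the other reported targets 1 was higher and 1 lower. The background probe sets then differed by -0.13 (exact permutation p = 0.0286). With genes above the highest background alone, 0 multiciliated and 3 epithelial genes were higher, with fewer genes tested. With an intensity trend, 4 of the other reported targets were higher. Itch reversed to 0.37 and 0.061 with its most variable probe set and the mean of its probe sets. For the other shifts the cause was not tested.

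With 1 array left out, calls over all genes ranged from 1580 to 1871 higher and from 1037 to 1246 lower. Lower multiciliated genes then numbered 1 to 2, and higher genes among the other reported targets 1 to 3. The main fit did not take the replicate numbers as pairs. After subtracting each gene's group mean, correlations over all genes between same-numbered cisplatin and control arrays ran from 0.0649 to 0.2. By this measure 7 of 8 arrays correlated best with the array of their own number in the other group. The p-values of the main fit may therefore ignore a pairing. With the replicate number as a block, 2111 genes were higher and 1336 lower and the difference of Trp73 was 2.10. Under that block Aqp3 was called (adjusted p = 0.00351) and Plk4 and Itch were not (0.0857 and 0.0552).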
